A study of Mus musculus with 4 samples.

Results

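The mitochondrial ribosome is represented here by 77 genes whose symbols begin with Mrpl or Mrps and a number, out of 19938 genes on the array. They were taken by name alone from 85 probe sets that carry a single symbol, with the brightest probe set standing for each gene. Symbols marked -ps, for pseudogenes, were left out, but whether a probe set also reads a processed copy of its gene was not tested. Their log2 values ran from 4.78 to 10.52, and all 77 exceeded 4.25, used here as a floor, on every array. The floor is the 95th percentile over 1212 probe sets of odorant and vomeronasal receptors, genes not expected in these cells. It was exceeded by 13561 genes on at least 1 array. The gene Mrpl53 shares its only probe set with Ccdc142 and was not counted.

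The cells were RAW 264.7, a mouse macrophage-like line that forms osteoclasts. There were 4 groups of 1 Affymetrix Mouse Gene 1.0 ST array each. Control-vector cells were left unstimulated, and control-vector cells were given RANKL, the osteoclast-inducing ligand, with M-CSF, a macrophage growth factor, for 72 h. Cells transfected with a vector that expresses miR-155 were treated in the same 2 ways. A dose of 20 ng/ml is given in the series text without being assigned to either cytokine. That text speaks of wild-type cells, whereas the samples are described as carrying a control vector. The labels do not say whether the transfected cells were clones or pools. Since each group is 1 array, the differences below have no replicate check, and precision is limited by the small number of arrays. The receptor probe sets give a noise reference for dim signals only. For 95% of them the stimulated and unstimulated values lay less than 0.48 (log2) apart with the control vector and 0.41 with miR-155. The same limit for miR-155 against control was 0.37 without and 0.47 with stimulation.

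Mitochondrial ribosomes translate the few proteins that mitochondrial DNA encodes, all of them subunits of the oxidative phosphorylation complexes. Their RNAs are made in the mitochondrion, but every protein is encoded in the nucleus, made on cytosolic ribosomes and imported. Many of these proteins have a counterpart in bacterial ribosomes and others were acquired later in evolution, and each assembled ribosome needs them in fixed proportion. Osteoclasts are rich in mitochondria, and formation of these cells is known to come with more mitochondrial biogenesis.

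The microRNA in the vector is shown with its seed, bases 2 to 8, in capitals. Its sequence is RefSeq's for GRCm38.p6, at chr16:84714143-84714165 on the plus strand.
mmu-miR-155-5p: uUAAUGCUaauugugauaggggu
The Mir155 probe set read 3.72, 3.61, 3.58 and 3.73 (log2) on the unstimulated control, stimulated control, unstimulated miR-155 and stimulated miR-155 array. All lie below the floor, so expression from the vector could not be checked here.

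The promoters of 4 genes that the results below turn on are shown next, each from 250 bases before to 50 after the start of the gene. The members at the upper end of the response in control-vector cells are Mrpl52 and Mrps18a, the member at the lower end is Mrps15, and Mmp14 is the coding gene that follows Mrpl52 on the chromosome. Sequences are RefSeq's for GRCm38.p6. Capitals mark an ETS-type motif (CCGGAAG) or a YY1-type motif (AAGATGGCG) on either strand.
Mrpl52, chr14:54426659-54426958, plus strand: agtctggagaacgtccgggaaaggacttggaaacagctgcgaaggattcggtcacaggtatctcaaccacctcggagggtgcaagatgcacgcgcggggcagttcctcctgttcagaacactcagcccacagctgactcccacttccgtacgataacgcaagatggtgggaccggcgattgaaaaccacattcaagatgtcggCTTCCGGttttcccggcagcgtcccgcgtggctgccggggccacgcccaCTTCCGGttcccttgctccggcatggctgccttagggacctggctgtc
Mmp14, chr14:54431348-54431647, plus strand: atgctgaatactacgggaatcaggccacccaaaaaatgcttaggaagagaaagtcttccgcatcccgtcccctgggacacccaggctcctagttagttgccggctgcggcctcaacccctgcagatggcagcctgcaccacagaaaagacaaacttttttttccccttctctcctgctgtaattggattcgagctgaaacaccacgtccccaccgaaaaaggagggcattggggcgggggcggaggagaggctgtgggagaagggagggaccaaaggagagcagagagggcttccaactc
Mrps18a, chr17:46110754-46111053, plus strand: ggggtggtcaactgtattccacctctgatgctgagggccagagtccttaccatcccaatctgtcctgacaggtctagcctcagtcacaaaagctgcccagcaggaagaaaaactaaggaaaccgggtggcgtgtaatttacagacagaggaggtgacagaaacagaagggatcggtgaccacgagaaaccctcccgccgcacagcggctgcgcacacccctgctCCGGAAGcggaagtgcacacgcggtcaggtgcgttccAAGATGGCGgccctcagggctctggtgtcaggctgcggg
Mrps15, chr4:126046678-126046977, plus strand: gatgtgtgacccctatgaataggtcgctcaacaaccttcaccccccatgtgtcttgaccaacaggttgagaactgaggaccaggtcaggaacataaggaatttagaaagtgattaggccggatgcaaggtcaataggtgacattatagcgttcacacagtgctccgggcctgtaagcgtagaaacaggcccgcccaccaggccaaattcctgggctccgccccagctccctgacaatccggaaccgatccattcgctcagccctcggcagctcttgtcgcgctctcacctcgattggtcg
Mrpl52 has 2 ETS-type motifs in this window and Mrps18a has 1 of each kind. The windows of Mmp14 and Mrps15 hold neither. Of the other members among the 6 highest of that response, Mrpl51 and Mrpl17 have 1 ETS-type motif each, and Mrpl41 and Mrpl14 have neither. Of the others among the 6 lowest, Mrpl33 and Mrpl3 have 1 ETS-type motif each, Mrps10 and Mrpl39 have neither, and Mrpl13 has no window.

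RefSeq promoter windows were found for 68 of the 77 members, 74 windows in all. A gene was counted once if any of its windows held a motif, since Mrpl2 and Mrpl48 have 3 and 4 windows. The ETS-type motif was in 25 of the 68 genes (36.8%), against 9.93% of all 27025 genes with a window. An NRF1-type motif (GCGCANGCG) was in 16 (23.5%, against 7.03%), the YY1-type motif in 8 (11.8%, against 1.64%) and an Sp1-type motif (GGGCGG) in 34 (50%, against 38.2%). The E-box CACGTG was in 5 genes (7.35%, against 8.09%) and the cyclic AMP response element TGACGTCA in 2 (2.94%, against 2.03%). Both strands were searched. All members are above the floor, whereas the 27025 genes are not limited to the 13561 above it. Shares among genes above the floor, or in the other lists used here, were not counted. Whether the motifs are particular to the members was therefore not tested. The ETS-type and YY1-type motifs can share the letters AAG, and the Sp1-type motif was not marked in the windows above. A match is a run of letters and not a measured binding site, and its absence says only that these letters are not in the window.

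In control-vector cells, RANKL and M-CSF came with small differences for most of these genes and a larger one for Mrpl52. Of the 77, 6 were at least 1.5-fold higher, against 12.3% of all genes above the floor, and 1 was at least 1.5-fold lower, against 15.1%. The median difference of the members was 0.14 (log2), and that of all genes was -0.02. The members' median was 0.25 with quantile normalization repeated and 0.29 with each array centred on its median, where those of all genes were 0.04 and 0.12. By any amount, 56 of 77 were higher, against 47.8% of all genes. Repeating quantile normalization gave 9 higher and 1 lower past 1.5-fold, and centring gave 13 and 0. In either direction these were 13.0% and 16.9% of members, against 27.1% and 28.0% of all genes. The standard deviation of the members was 0.37, against 0.79 over all genes.

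Mrpl52, a large-subunit protein with no bacterial counterpart, read 7.97 on the unstimulated and 9.67 on the stimulated control array, and 8.22 and 8.33 on the unstimulated and stimulated miR-155 arrays. The stimulated control array stands alone, and the other 3 lie between 7.97 and 8.33. The difference in control-vector cells was 1.70, or 3.24-fold, the only member past 2-fold, against 12.7% of all genes. In miR-155 cells the same difference was 0.11.

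The other members past 1.5-fold upward in control-vector cells all belong to the large subunit. Mrps18a, a relative of bacterial protein S18 that sits in the large subunit despite its name, read 8.63 unstimulated and 9.39 stimulated with the control vector, and 8.84 and 9.08 with miR-155. Mrpl41, a protein specific to mitochondria, read 8.67 and 9.41, then 8.62 and 8.77. Mrpl14, which lies where the subunits meet, read 6.31 and 6.99, then 6.71 and 6.66. For these genes, too, the stimulated control array was the highest of the 4.
Mrpl51 read 9.04 and 9.72 in control-vector cells and 9.23 and 9.02 in miR-155 cells. Mrpl17 read 7.56 and 8.24, then 7.61 and 7.70. Mrps35 (0.55), Mrps36 (0.55), Mrps25 (0.54) and Mrps34 (0.51) lay just inside the threshold, and Mrps25 and Mrps35 are named for that after their values were seen. Mrps36 is named as a ribosomal protein but is known as a subunit of the 2-oxoglutarate dehydrogenase complex.

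At the lower end stood Mrps15, whose bacterial counterpart binds ribosomal RNA in the small subunit. It read 9.51 unstimulated and 8.91 stimulated with the control vector, and 9.27 and 9.33 with miR-155, so that it was 1.52-fold lower in the first pair. Mrps10, whose bacterial counterpart sits in the head of the small subunit, differed by -0.56 in control-vector cells. Mrpl13 (-0.50), Mrpl39 (-0.48), a protein related to threonyl-tRNA synthetase, Mrpl33 (-0.47) and Mrpl3 (-0.36) completed the 6 lowest. These lower values were spread over both subunits.

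**Figure D1:**
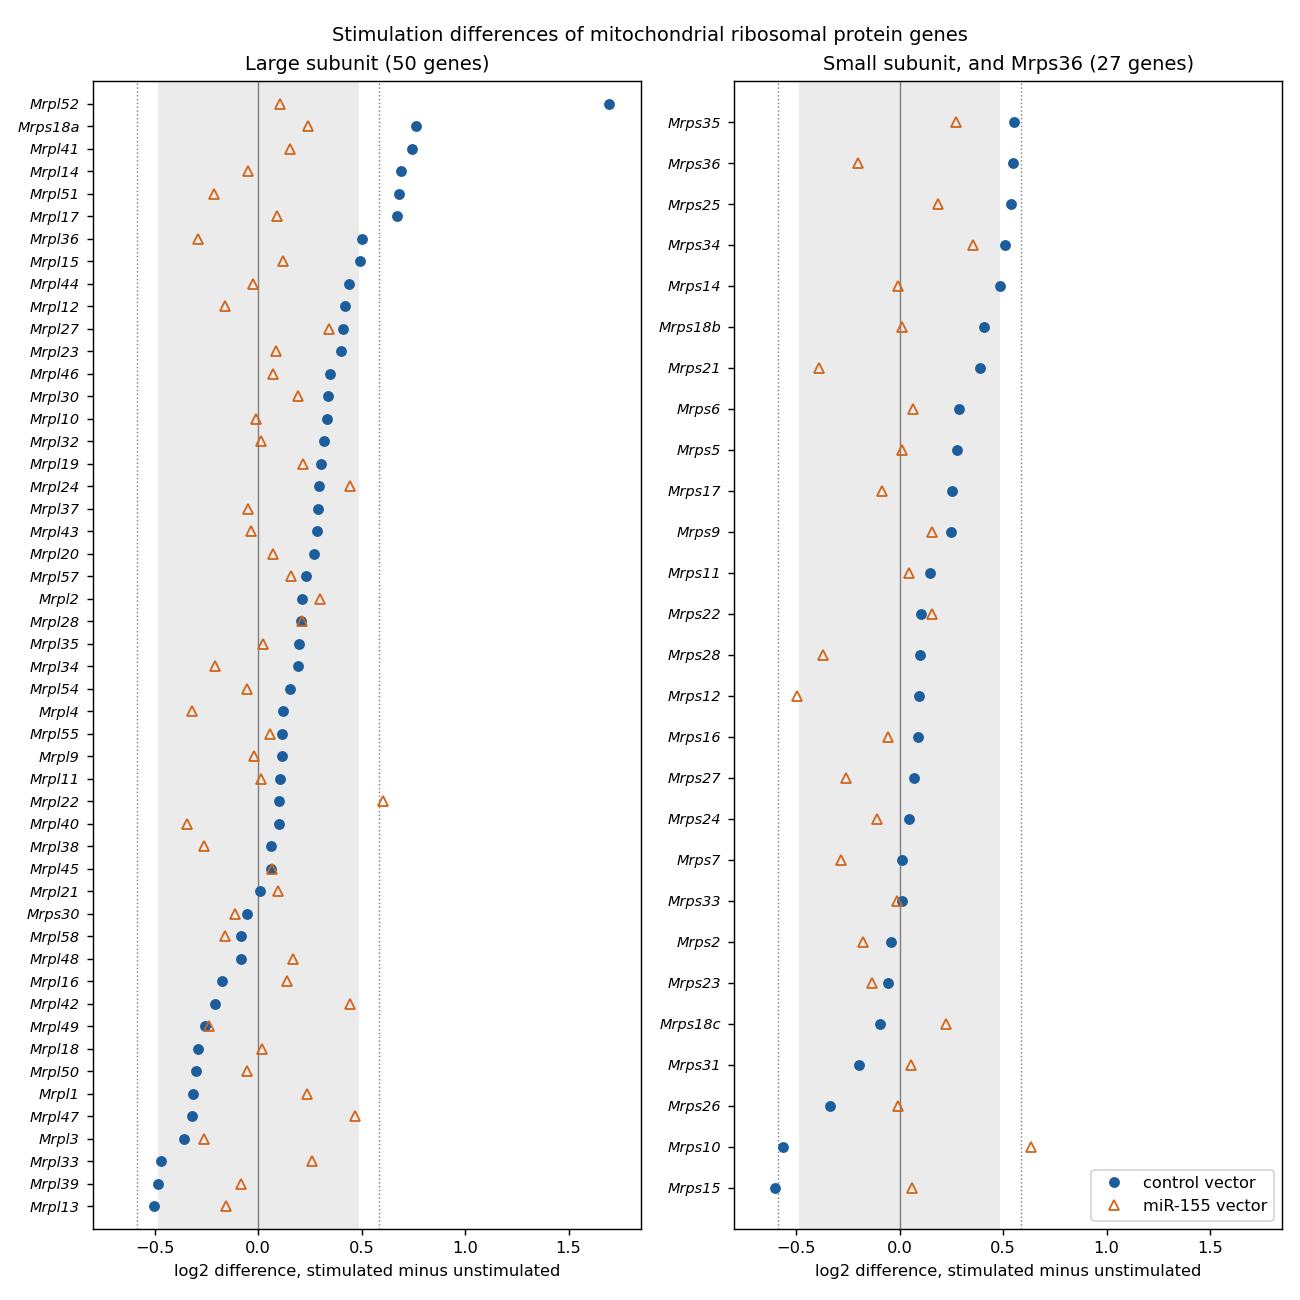
Log2 difference between the stimulated and unstimulated array for each of the 77 genes, ordered by the difference in control-vector cells; filled circles are the control vector and open triangles the miR-155 vector. Grey marks the noise reference of the control comparison (0.48 either way) and dotted lines mark 1.5-fold. Mrpl52 stands apart at 1.70 on the control vector, and its triangle is at 0.11.

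By subunit, the 50 large-subunit genes had a median of 0.19 in control-vector cells and the 26 small-subunit genes one of 0.09, while Mrps36 was placed in neither. Of the 50 large-subunit genes, 6 were at least 1.5-fold higher and 0 lower. Of the 26 small-subunit genes, 0 were higher and 1 was lower. The shares over all genes were 12.3% higher and 15.1% lower. Among the 6, Mrpl51 passed with only 1 of its 2 probe sets (0.68, against 0.29). With arrays centred, the 13 higher genes were 8 of the large subunit, 4 of the small subunit (Mrps14, Mrps25, Mrps34 and Mrps35) and Mrps36, and none was lower. The difference between the subunits was not tested. The 45 genes with a bacterial counterpart had a median of 0.19, and the 31 genes specific to mitochondria one of 0.10. The standard deviations were 0.31 and 0.44, the latter 0.34 without Mrpl52. Of the 3 relatives of bacterial protein S18, Mrps18a was at 0.76, Mrps18b at 0.41 and Mrps18c at -0.10. In these classes Mrps18c was counted as having a bacterial counterpart, and Mrps18a and Mrps18b as specific to mitochondria. The assignment to subunits and classes is textbook knowledge and was not measured here.

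The chromosomal neighbours of Mrpl52 were also higher in the stimulated control cells. On the RefSeq assembly GRCm38.p6 the coding genes run Oxa1l, Slc7a7, Mrpl52, Mmp14 and Lrp10. Mmp14, a membrane-anchored matrix metalloproteinase, read 4.95 and 8.60 with the control vector and 5.26 and 5.03 with miR-155. Its difference was 3.65 in control-vector cells and -0.23 in miR-155 cells.
Slc7a7, a cationic amino acid transporter, read 5.34 and 6.49, then 4.84 and 4.94. Lrp10, a receptor of the low-density lipoprotein receptor family, read 7.85 and 10.01, then 7.93 and 8.39. In Slc7a7, Mrpl52, Mmp14 and Lrp10 the stimulated control array was the highest by at least 1.15. Oxa1l, which inserts mitochondrially made proteins into the inner membrane, read 9.67 and 9.93, then 9.55 and 9.60, and differed by 0.26 and 0.05. Whether transcription or probe signal of one gene extends into the next was not tested. Mrpl52 was looked at in this way after its values were seen.

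**Figure D2:**
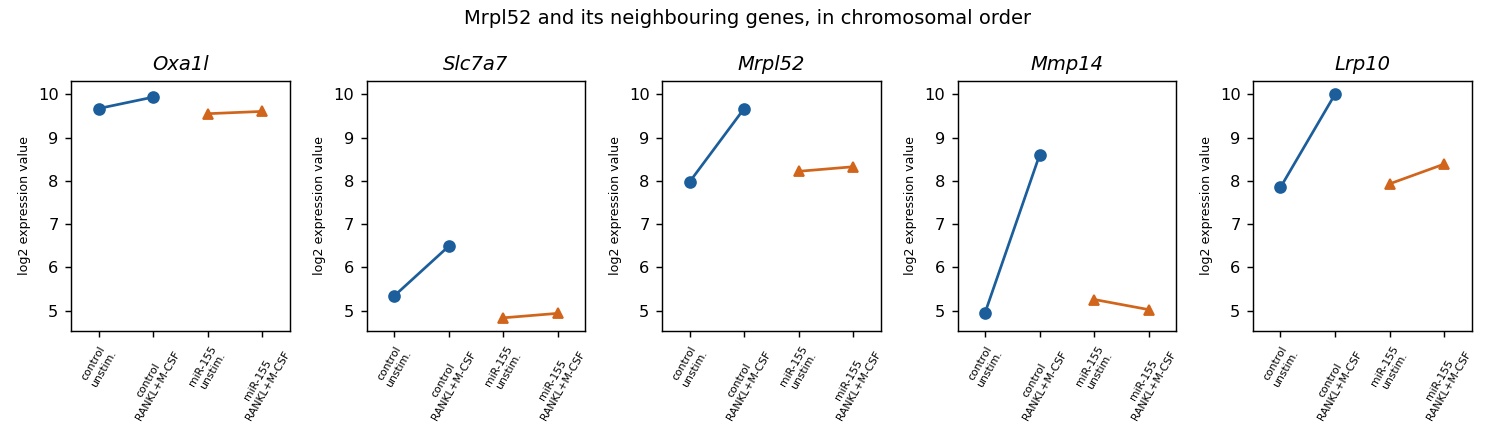
Log2 expression values on the 4 arrays for Mrpl52 and the coding genes beside it, in chromosomal order on a shared scale; circles are the control vector, triangles the miR-155 vector, and lines join the arrays of 1 vector. Slc7a7, Mrpl52, Mmp14 and Lrp10 are highest on the stimulated control array, at 6.49, 9.67, 8.60 and 10.01. Levels of different genes come from different probe sets and are not comparable.

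Neighbours were then counted for all members. Of 74 members with a measured coding neighbour directly beside them, 16 (21.6%) had one that differed at least 2-fold in control-vector cells, against 19.7% of all genes with such neighbours. In 3 of the 16 the member itself was past 1.5-fold in the same direction: Mrpl52, Mrpl41 (0.74, beside Pnpla7 at 1.76) and Mrpl14 (0.69, beside Tmem63b at 1.12). That is 18.8% of the 16, against 21.0% of all genes with such a neighbour. Mrpl51 was higher (0.68, or 0.29 by its second probe set) beside the condensin subunit gene Ncapd2 (-2.20), and Mrps36 was at 0.55 beside the centromere gene Cenph (-2.45). Whether the probe sets used for Mrpl41 and Mrpl51 lie in these genes was not tested.

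In miR-155 cells the same stimulation came with smaller differences in most members, 52 of 77 lying closer to 0 than in control-vector cells, as did 66.4% of all genes. Of the 77, 2 were at least 1.5-fold higher, against 3.43% of all genes, and 0 lower, against 3.73%. The median was 0.01, that of all genes -0.03, and 42 of 77 were higher by any amount, against 45% of all genes. Mrpl22, which lines the exit tunnel of the large subunit, read 5.56 and 5.66 with the control vector and 6.02 and 6.62 with miR-155. It was 1.52-fold higher in the miR-155 pair (0.60), and both miR-155 arrays lay above both control arrays.

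The second gene was Mrps10, which read 6.29 unstimulated and 5.73 stimulated with the control vector, and 5.96 and 6.59 with miR-155. It was 1.55-fold higher with stimulation in miR-155 cells and 1.48-fold lower in control-vector cells. Mrpl47 (0.47), Mrpl42 (0.44), Mrpl24 (0.44) and Mrps34 (0.36) followed. At the lower end were Mrps12 (-0.49), a protein of the decoding centre, Mrps21 (-0.39), Mrps28 (-0.37), Mrpl40 (-0.35), Mrpl4 (-0.32) and Mrpl36 (-0.29). Mrps10, Mrpl22, Mrpl47, Mrpl42 and Mrpl24 lay past the noise reference of 0.41 upward, and Mrps12 past it downward. These are 5 and 1 of the 77, against 967 and 1243 of all 13561 genes above the floor.

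No array is common to the responses of the 2 vectors. Over the 77 genes Pearson's r was -0.00 and Spearman's rho 0.10, against 0.47 and 0.28 over all genes above the floor. These describe genes on the same 4 arrays, and genes are not independent replicates. Both responses were upward in 31 members and downward in 10, while 25 were upward with the control vector only and 11 with miR-155 only. The sign was thus shared by 53.2% of members and by 58.0% of all genes. Mrps34, a small-subunit protein, was at 0.51 and 0.36 and Mrps35 at 0.55 and 0.27, whereas Mrps21 was at 0.39 and -0.39.

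**Figure D3:**
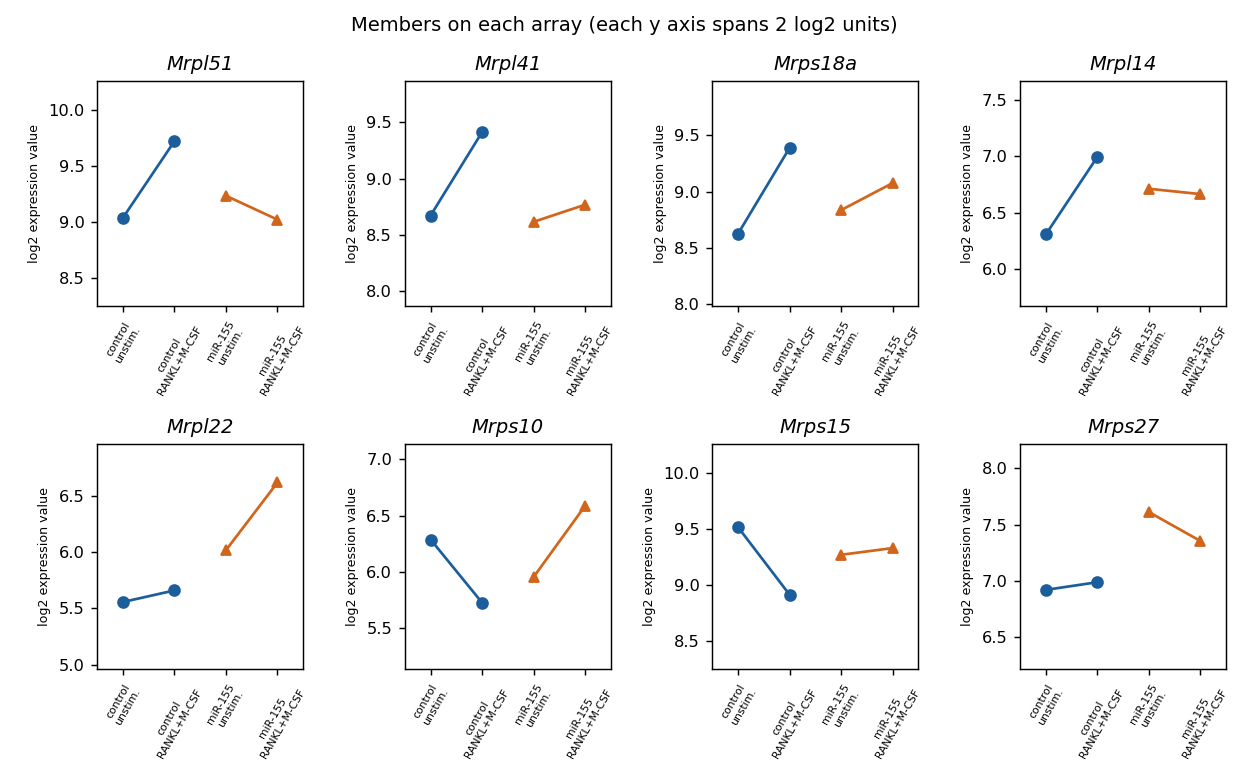
Log2 expression values of 8 members on the 4 arrays; circles are the control vector, triangles the miR-155 vector, lines join the arrays of 1 vector, and each panel spans 2 log2 units around the gene's mean. Mrpl51, Mrpl41, Mrps18a and Mrpl14 peak on the stimulated control array, Mrpl22 is highest on the stimulated miR-155 array (6.62), and Mrps10 goes down with the control vector (6.29 to 5.73) and up with miR-155 (5.96 to 6.59).

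Without stimulation the vectors differed little in these genes. Of the 77, 1 was higher with miR-155 by 1.5-fold or more, against 1.18% of all genes, and 0 lower, against 3.14%. The median was 0.10, or 0.17 with arrays centred, that of all genes -0.00, or 0.06, and 52 of 77 were higher by any amount, against 49.9% of all genes. The gene past 1.5-fold was Mrps27, a pentatricopeptide-repeat protein of the small subunit that is specific to mitochondria. It read 6.92 and 6.99 on the control arrays and 7.61 and 7.36 on the miR-155 arrays, and both miR-155 values were above both control values.

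Next came Mrps12 (0.52), Mrpl22 (0.46), Mrpl44 (0.45), which carries a ribonuclease III-like fold, Mrpl12 (0.43), the stalk protein that engages elongation factors, and Mrpl14 (0.41). The lowest were Mrpl1 (-0.42), a protein of the other stalk, Mrps10 (-0.33), Mrps15 (-0.24), Mrpl50 (-0.24), Mrps33 (-0.24) and Mrpl45 (-0.20). The small subunit had a median of 0.15 and the large subunit one of 0.06.

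With stimulation, 5 of 77 members were higher with miR-155 by 1.5-fold or more, against 12.3% of all genes, and 3 were lower, against 13.6%. This comparison uses the stimulated control array, as the stimulation comparison in control-vector cells does, so the 2 are not independent. The higher genes were Mrpl22 (0.96), Mrps10 (0.86), Mrpl42 (0.80), Mrpl47 (0.64) and Mrpl33 (0.62), with Mrps31 next (0.44). The lower genes were Mrpl52 (-1.34, or 2.54-fold lower), Mrpl51 (-0.70) and Mrpl41 (-0.65), with Mrpl17 (-0.54), Mrpl36 (-0.53) and Mrps36 (-0.50) next. With quantile normalization repeated the split was 3 higher and 3 lower, and with each array centred on its median 3 higher and 5 lower. With the mean of a gene's probe sets 4 were higher and 1 lower. Past 1.5-fold in either direction, these settings had 7.79%, 10.4% and 6.49% of members, against 25.8%, 26.6% and 25.8% of all genes. The median of the members was -0.06, or -0.13 with arrays centred, and that of all genes -0.02, or -0.10. By any amount, 29 of 77 were higher, against 47.5% of all genes.

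The response in miR-155 cells minus that in control-vector cells, which uses all 4 arrays, was at least 1.5-fold upward in 5 members, against 14.5% of all genes, and downward in 8, against 13.9%. Mrpl52 was lowest at -1.59, followed by Mrpl51 (-0.89), Mrpl36 (-0.79), Mrps21 (-0.78), Mrps36 (-0.75) and Mrpl14 (-0.74). Mrps10 was highest at 1.19, followed by Mrpl47 (0.79), Mrpl33 (0.73), Mrps15 (0.66), Mrpl42 (0.65) and Mrpl1 (0.55). With each array centred, 3 were upward and 15 downward, together 23.4% of members, against 30.6% of all genes past 1.5-fold either way. The median of the members was -0.15, or -0.29 with arrays centred, and that of all genes -0.03, or -0.17, and 24 of 77 were above 0, against 47.2% of all genes.

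Across all 4 arrays, 63 of the 77 genes (81.8%) spanned less than 1.5-fold from lowest to highest value, against 59.8% of all genes above the floor. The widest ranges were those of Mrpl52 (1.70), Mrpl22 (1.06), Mrps10 (0.86), Mrpl42 (0.80), Mrpl41 (0.80) and Mrps18a (0.76). The stimulated control array held the highest value of 37 members (48.1%, against 35.0% of all genes) and the unstimulated control array the lowest value of 38 (49.4%, against 18.6%). With arrays centred these counts were 45 (58.4%, against 44.4%) and 47 (61.0%, against 29.8%). The small-subunit genes Mrps16 and Mrps22 ranged from 8.47 to 8.63 and from 7.26 to 7.68. Mrpl11, a factor-binding protein of the large subunit, ranged from 8.62 to 8.79 and Mrps30, a large-subunit protein in spite of its name, from 7.22 to 7.34. Mrpl37, specific to mitochondria, ranged from 8.53 to 8.98, and Mrpl10, which anchors the stalk, from 8.75 to 9.13.

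An additive limma model over the 4 arrays, with stimulation and vector as terms, has 1 residual degree of freedom, which is the disagreement between the vectors and not the spread of cultures. For stimulation it called 0 of 77 members after Benjamini-Hochberg adjustment over all 13561 genes, of which 0% were called. At an unadjusted p under 0.05 it had 0 members, against 7.52% of all genes. The lowest adjusted p by limma among members was 0.656, for Mrps34 (0.43, SE 0.20) and Mrps18a (0.50, SE 0.23), both higher in 2 of 2 vectors. For miR-155, limma called 0 members and 0% of all genes, with 1 member at an unadjusted p under 0.05, against 3.86% of all genes. That member was Mrpl22 (0.71, SE 0.23, adjusted p by limma 0.889), higher in both states.

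For the neighbouring steps of mitochondrial translation, counts in control-vector cells stand against 12.3% of all genes at least 1.5-fold higher and 15.1% lower. The other mitoribosomal proteins, Dap3, Ptcd3, Chchd1 and Gadd45gip1, lay between -0.19 and 0.37, and 0 of these 4 were past 1.5-fold. Of 21 assembly factors, 1 was at least 1.5-fold higher and 2 lower, with a median of -0.04. Mpv17l2, an inner-membrane protein needed for ribosome assembly, was at 1.15 with the control vector and -0.14 with miR-155. Gtpbp10, a GTPase that matures the large subunit, was at -1.11 and 0.34, and Tfb1m, which methylates small-subunit ribosomal RNA, at -0.64 and 0.00. Mrm2, a large-subunit RNA methyltransferase, was just inside the threshold at -0.58, then -0.51.

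Of 16 translation factors, 1 was at least 1.5-fold higher and 0 lower, with a median of 0.08. The higher one was Gfm2, a ribosome recycling factor, at 0.61 with the control vector and 0.23 with miR-155. The initiation factor Mtif3 was at 0.49 with the control vector and -0.10 with miR-155, and Mtif2 at -0.44 and 0.32. Between the unstimulated vectors Mtif2 was at -0.65. Of 16 mitochondrial aminoacyl-tRNA synthetases, 0 were at least 1.5-fold higher and 3 lower, namely Yars2 (-0.81), Cars2 (-0.66) and Pars2 (-0.60), with a median of 0.00. In miR-155 cells these 3 were at -0.62, 0.07 and -0.32. Past 1.5-fold in control-vector cells lay 6.25% of the translation factors and 18.8% of the synthetases, against 27.5% of all genes.

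Of 8 genes of mitochondrial DNA upkeep and transcription, 0 were at least 1.5-fold higher and 4 lower in control-vector cells, with a median of -0.34. That is 50% of them past 1.5-fold, against 27.5% of all genes. The lower ones were the exonuclease Mgme1 (-1.07), the DNA-packaging factor Tfam (-0.95), the single-strand binding protein Ssbp1 (-0.79) and the helicase Twnk (-0.65). In miR-155 cells Ssbp1 was at 0.59, Tfam at -0.28, Mgme1 at -0.32 and Twnk at -0.08. Among 9 regulators of mitochondrial biogenesis above the floor, 3 were at least 1.5-fold higher and 2 lower in control-vector cells. Together these were 55.6% of the 9, against the same 27.5%. Myc, a growth factor-responsive transcription factor, was at 4.04 with the control vector and 2.85 with miR-155, Ppargc1b, a coactivator, at 1.59 and -0.17, and the nuclear receptor Esrra at 0.61 and -0.15. Creb1 (-1.09) and Nrf1 (-0.80) were the lower ones, and were at 0.07 and 0.06 in miR-155 cells.

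The nuclear-encoded subunits of oxidative phosphorylation, partners of the proteins that mitochondrial ribosomes make, are set beside them here. Of 74 such subunits, 47 were at least 1.5-fold higher in control-vector cells and 0 lower, against 12.3% and 15.1% of all genes. All 74 were higher by some amount, against 47.8% of all genes. The median of these subunits was 0.69, against 0.14 for the 77 ribosomal genes. Their quartiles were 0.49 and 0.85, above the upper quartile of 0.34 of the ribosomal genes. In miR-155 cells the medians were 0.06 and 0.01, and between the unstimulated vectors 0.15 and 0.10. The 57 cytosolic ribosomal protein genes had a median of 0.05 in control-vector cells, -0.07 in miR-155 cells and 0.10 between the unstimulated vectors. These lists stand side by side as values, and their difference was not tested.

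**Figure D4:**
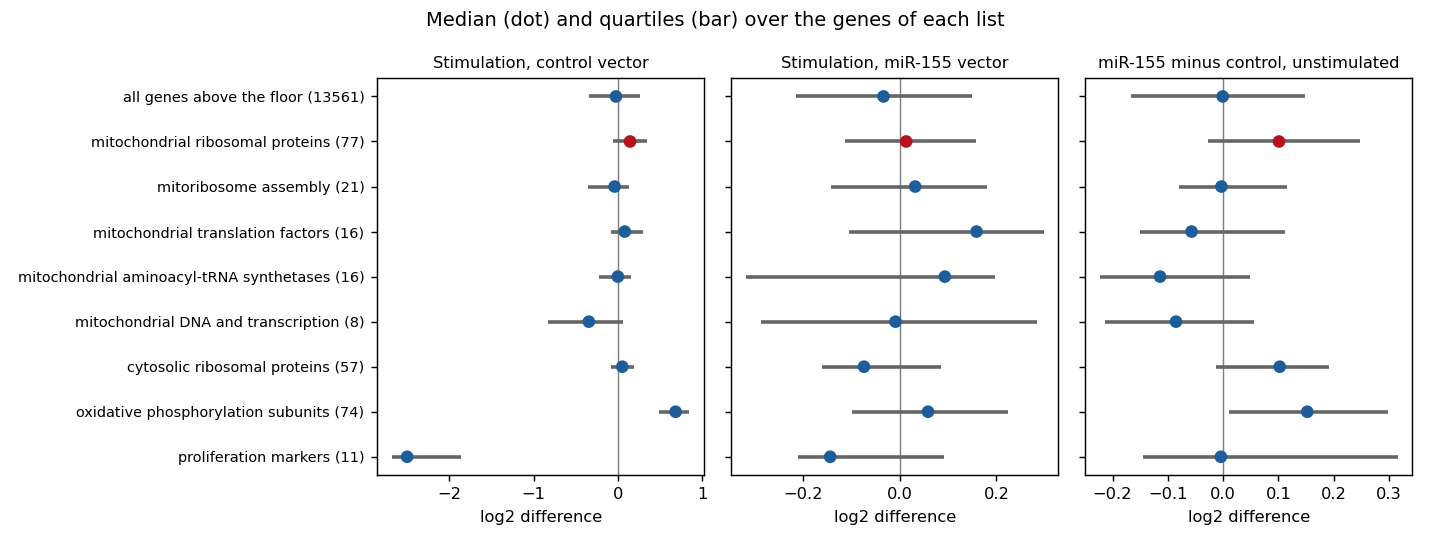
Median (dot) and quartiles (bar) of log2 differences over the genes of each list, with the number of genes above the floor in parentheses, for stimulation in each vector and for miR-155 minus control without stimulation; the x scales differ. The mitochondrial ribosomal genes are the red dot. In control-vector cells they sit at 0.14, the oxidative phosphorylation subunits at 0.69 and the proliferation markers at -2.50.

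Levels of cell state markers differed between the arrays. All 12 macrophage and all 12 osteoclast markers were above the floor. Summed log2 levels of the macrophage markers were 132.0 and 103.7 on the unstimulated and stimulated control arrays and 131.3 and 128.6 on the miR-155 arrays, and those of the osteoclast markers 73.3 and 128.9, then 69.7 and 107.9. The 11 proliferation markers summed to 104.1 and 78.6, then 104.7 and 104.0. The macrophage and proliferation sums were lowest on the stimulated control array, and the osteoclast sum was higher on both stimulated arrays. In control-vector cells 9 macrophage markers were lower with stimulation, and Spi1 (0.96), Cd68 (0.29) and Tyrobp (0.28) were higher. All 12 osteoclast markers were higher there. In miR-155 cells 10 were, while Tnfrsf11a (-0.20) and Calcr (-0.13) were lower. Of T and B cell markers, 3 of 7 were above the floor, with Cd4, Cd3g, Cd79a and Ms4a1 below it, and of fibroblast and osteoblast markers 5 of 7, with Lum and Ibsp below it. The decorin gene Dcn, at 3.48 and 5.04, then 3.54 and 4.05, was the only one of these past 1.5-fold in control-vector cells. Their part in the members' differences was not tested. Over all genes the stimulated control array stood apart, with Pearson correlations of 0.908 to 0.937 with the other arrays, which correlated at 0.982 to 0.989 among themselves. Over the 77 members the same correlations were 0.950 to 0.954 and 0.979 to 0.982. RNA per cell and cell number cannot be told apart in such bulk samples.

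A second probe set was present for 8 members and served as a check on the reading. For Mrpl41 the second probe set gave 0.70 in control-vector cells, against 0.74. For Mrpl23 it gave 0.43, against 0.40, and for Mrps36 0.56, against 0.55. For Mrps5 it gave 0.21, against 0.28, and for Mrps33 -0.09, against 0.01. The probe sets parted for Mrpl51, where the second gave 0.29 in control-vector cells and 0.46 in miR-155 cells, against 0.68 and -0.21. They also parted for Mrpl47 (0.19 and 0.05, against -0.32 and 0.47) and, in miR-155 cells, for Mrpl27 (-0.18, against 0.34) and Mrps5 (0.32, against 0.01). The values of Mrpl51 and Mrpl47 in the comparisons above therefore rest on 1 of their 2 probe sets. For Mrpl27, Mrpl41, Mrpl47 and Mrpl51, which of the 2 probe sets lies in the gene was not tested.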

How the data were processed

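RNA from 4 RAW 264.7 cultures, 1 array each, was labelled from 100 ng and hybridised to Affymetrix arrays, per the labels. The authors deposited a log2 value for every probe set on each array. Per the submitters' processing notes, the tools were RMA and Partek. Their versions and the genome build were not given in the sources used here. After sorting, the authors' columns differed by at most 0.218 (log2), so a change in total RNA would not show. Arrays give no read depth.

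The platform annotation gave 1 symbol to 21789 of 35557 probe sets, several to 1621 and none to 12147. Each gene was read from its brightest probe set. A gene was kept if any array exceeded 4.25, the 95th percentile of receptor probe sets. All 77 members matched RefSeq by gene ID. Differences of log2 values were taken as deposited and counted at 1.5-fold. limma 3.58.1 (R 4.3.3) was tested on simulated data first. Python 3.11.15, numpy 2.4.6, pandas 2.3.3 and matplotlib 3.10.9 were used.

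The members and lists were chosen with earlier results of these data known. Named members are the 6 highest and 6 lowest in each comparison, a preset group, and those whose probe sets disagree; other lists name their largest differences. The cytosolic ribosomal and oxidative phosphorylation lists, the neighbours of Mrpl52 and the motifs were chosen after the files were read. Alternatives were other floors, scalings, probe set rules and fold thresholds.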

Additional observations from a re-analysis of the deposited data

Results flagged for a closer look

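Mrps10 was the only member whose stimulation responses lay past the noise reference in opposite directions in the 2 vectors, at -0.56 with the control vector and 0.63 with miR-155. The difference of the responses was 1.19 (log2). With 1 array a group this difference was not tested against replicates. How many of all genes lay past the noise reference in opposite directions was not counted, so whether 1 of 77 is unusual cannot be said. By any amount, 25 members were upward with the control vector only and 11 with miR-155 only. Over all 13561 genes above the floor these counts were 3028 and 2655.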

How the results depend on the processing

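No paired analysis was possible because the groups share fewer than 2 replicate numbers. The additive limma model, which has the vector as a term, is the only fit that compares stimulation within vectors. Of 119 recomputed values, 34 use another floor and equal the reported value. For medians and fold counts that is by construction, since all 77 members pass each floor. The limma counts of members, 14 with some of them among the 34, are all 0. Values of these kinds do not bear on stability. No median changed sign, but scaling moved their sizes: with quantile normalization repeated the medians were 0.25 and 0.05 for stimulation in control-vector and miR-155 cells, and with arrays centred 0.29 and 0.02. Without Mrpl52, an alternative chosen after seeing the data, they were 0.13 and 0.01. Centring each array on its median shifted the median of all genes in control-vector cells from -0.02 to 0.12, and members stood 0.17 above it either way. Between stimulated vectors the members' median minus that of all genes was -0.03, and 0.01 with quantile normalization repeated. Limits: 1 array a group, no replicate error, and counts that rest on few genes near 1.5-fold.

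At 2-fold in place of 1.5-fold, the members higher and lower were 1 and 0 for stimulation in control-vector cells, 0 and 0 in miR-155 cells, 0 and 0 between unstimulated vectors, 0 and 1 between stimulated vectors, and 1 and 1 for the difference of the responses. With arrays centred, they were 13 and 0 for stimulation in control-vector cells, 2 higher between unstimulated vectors, 3 and 5 between stimulated vectors, and 3 and 15 for the difference of the responses. With quantile normalization repeated, 2 members were higher between unstimulated vectors and 3 between stimulated vectors. Of all genes, 4.12% and 25.8% were past 1.5-fold either way there. With the mean of probe sets, or only genes with 1 probe set, 1 member was lower between stimulated vectors. Of all genes, 25.8% and 26.0% were past 1.5-fold either way in these settings. With only genes with 1 probe set, 5 members were lower for the difference of the responses, where 28.3% of all genes were past 1.5-fold either way. The centring adds a constant to each difference, and the 1-probe-set rule leaves 69 members; other causes were not tested. limma called 0 members in each of its settings, with 0 to 4 of all genes called for stimulation. At an unadjusted p under 0.05 it had 0 members for stimulation and 1 or 2 for miR-155.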
